A study of Mus musculus with 4 samples.

Results

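Of the 10000 regions in a table of methylated DNA from 4 populations of CD4+ T cells, 1229 (12.3%) held no read in either T helper 17 (Th17) or T helper 1 (Th1) cells. Members were chosen by their deposited Th17 and Th1 values: a row belonged where both were 0. Since every row of the table was at 0 in Th17 cells, the Th1 value alone chose them. They carried 1051 of the table's 5377 Ensembl gene identifiers, and their methylated DNA was read in naive cells, in regulatory T cells (Treg), or, for 1223 of the 1229, in both.

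Female Balb/c mice gave the cells, which came from lymph nodes and spleen and were enriched for CD4, and each population yielded 1 library of captured genomic DNA. Naive cells were sorted as CD3+CD4+CD45RB_high. Th1 cells were CD3+CD4+CD45RB_low and secreted interferon gamma but no IL-17A, Th17 cells had the same surface markers and secreted IL-17A but no interferon gamma, and Treg cells were CD3+CD4+CD25++. All were exposed for 3 h to 10 ng/ml PMA with 500 ng/ml ionomycin, which together set off cytokine secretion without the T cell receptor. Treg cells were exposed after sorting and the other populations before it, so for Treg cells the order of steps cannot be told apart from the cell type. The sources used here do not say how many mice went into a library, and genomic DNA offers no marker level against which to check the sorted populations.

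DNA methylation in mammals is placed mainly on the cytosine of CG pairs, written CpG. When a naive CD4+ T cell becomes an effector cell, methylation is lost at cytokine genes and their control regions, and in Th1 cells this is best known for the interferon gamma gene. The capture used here binds methylated CpG pairs, so a region gives many reads where it holds many methylated CpGs, and few where CpGs are sparse or unmethylated. In such bulk DNA, fewer cells with the methylated region and less methylation in every cell cannot be told apart.

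CpG pairs are what the capture binds, so 4 promoter windows are shown for members whose region, by the distance to the gene start in the deposited table, overlaps that window. The sequences are from RefSeq (GRCm38.p6), matched by gene symbol and run from 250 bases before the start to 50 after it, 5′ to 3′, with each CpG in capitals. The region coordinates below are in mm9, another build, so no region was placed on these letters.
C130026I21Rik, chr1:85270517-85270816, - strand: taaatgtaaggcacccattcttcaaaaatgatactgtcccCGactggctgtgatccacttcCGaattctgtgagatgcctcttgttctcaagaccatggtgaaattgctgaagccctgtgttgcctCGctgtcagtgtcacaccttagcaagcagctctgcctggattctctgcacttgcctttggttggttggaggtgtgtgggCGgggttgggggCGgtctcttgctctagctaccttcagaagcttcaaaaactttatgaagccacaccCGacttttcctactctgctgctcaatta
Tctex1d1, chr4:102978453-102978752, + strand: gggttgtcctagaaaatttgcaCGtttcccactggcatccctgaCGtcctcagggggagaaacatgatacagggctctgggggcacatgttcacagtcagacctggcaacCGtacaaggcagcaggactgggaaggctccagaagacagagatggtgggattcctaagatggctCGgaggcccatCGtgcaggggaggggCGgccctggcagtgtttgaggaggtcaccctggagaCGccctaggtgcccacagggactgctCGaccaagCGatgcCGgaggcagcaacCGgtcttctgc
Krt40, chr11:99543171-99543470, - strand: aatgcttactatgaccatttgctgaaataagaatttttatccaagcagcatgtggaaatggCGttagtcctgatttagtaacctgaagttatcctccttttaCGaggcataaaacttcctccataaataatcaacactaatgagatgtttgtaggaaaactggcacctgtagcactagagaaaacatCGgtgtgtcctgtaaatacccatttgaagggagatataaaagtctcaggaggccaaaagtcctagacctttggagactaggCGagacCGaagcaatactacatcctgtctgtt
Tmco5, chr2:116878455-116878754, + strand: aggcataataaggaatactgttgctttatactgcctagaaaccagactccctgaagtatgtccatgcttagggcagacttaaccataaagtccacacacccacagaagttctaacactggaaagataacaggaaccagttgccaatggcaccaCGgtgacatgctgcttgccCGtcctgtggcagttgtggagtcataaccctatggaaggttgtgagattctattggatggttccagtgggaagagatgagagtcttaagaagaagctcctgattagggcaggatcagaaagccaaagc

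The C130026I21Rik window holds 6 CpGs, the Tctex1d1 window 11, the Krt40 window 5 and the Tmco5 window 2. Of all 32851 RefSeq promoter windows of this length, 41.4% hold at least as many CpGs as Tctex1d1 and 85.9% at least as many as Tmco5. Tctex1d1 belongs to a family of dynein light chains, and its member region (chromosome 4, 102658776 to 102659139), which reaches into exon 1, held 5 naive and 12 Treg reads. Krt40, a type I keratin gene, had 3 naive and 5 Treg reads (chromosome 11, 99404343 to 99404559). Tmco5 had 3 naive and 3 Treg reads (chromosome 2, 116704233 to 116704487). The C130026I21Rik region is described with the other promoters.

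The table gives scaled reads, in which 1 read was worth 0.996 in the naive library, 1.68 in Th1 and 0.352 in Treg. Dividing by these constants gave back the reads, 34277 naive, 19548 Th1 and 74571 Treg over the table. Taken as the inverse of depth, these constants put Th1 as the shallowest of the 3 libraries, with Treg 4.77 times and naive 1.69 times as deep. The worth of a Th17 read cannot be recovered from a column of zeros. Unless another kind is named, intervals are exact Poisson intervals at 95%. Those of values and of ratios describe counting error alone. Exact binomial intervals of shares treat regions as independent, although all regions come from the same libraries, and they describe no spread between libraries. Each population has 1 library, so no difference between populations was tested.

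The first question was how many regions would lack a Th1 read through counting error alone. If each region's naive, Th1 and Treg reads had been shared out by the depth of the libraries, 1759 ± 37.2 regions (SD of that count) would have had no Th1 read. The observed 1229 were 0.699 times that number. Over the whole table, regions with 1 Th1 read numbered 2892 (3090 expected), those with 2 numbered 2779 (2676 expected) and those with 3 numbered 1803 (1527 expected). At this depth fewer regions than counting error gives were thus at 0 and 1, and more at 2 to 6. With the depth taken from table totals, as below, those at 1 were more than expected (2775) and those at 5 and 6 fewer.

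**Figure D1:**
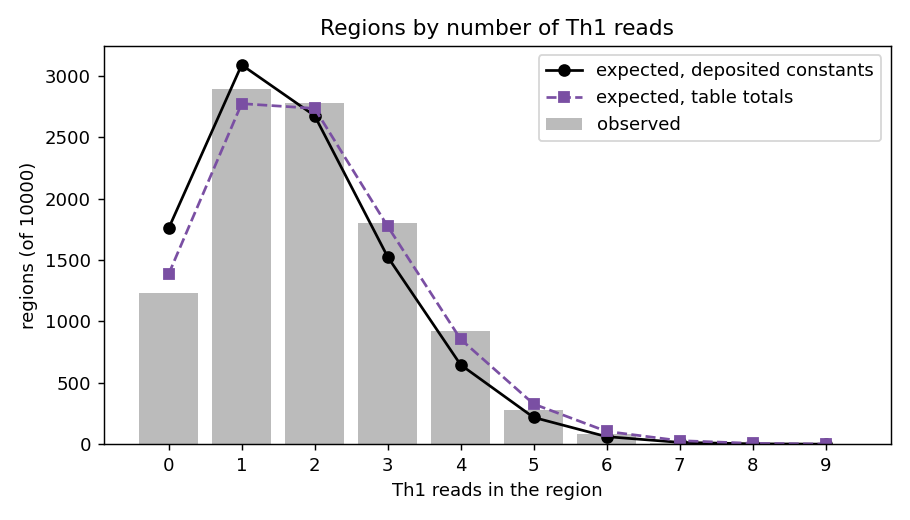
Number of regions (vertical axis) by Th1 reads per region (horizontal axis): grey bars are observed counts, black circles the counts expected from sharing out each region's reads by the deposited scaling constants, purple squares those expected from table totals. The bar at 0 stands at 1229, under both expected values, 1759 and 1387.

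The size of this gap depended on the depth taken for Th1. When the depth was taken from the table totals, in which Th1 holds 15.2% of the reads and not 13.4%, the expected number was 1387 ± 33.7, a ratio of observed to expected of 0.886. Set against the Treg reads alone it was 2046 ± 38.1, and against the naive reads alone 1115 ± 30.1, which is below the observed 1229, so the direction turned with the library used for comparison. The naive library also had fewer empty regions than expected, 161 against 520 by the constants and 302 by table totals, while Treg had 25 against 1.44 and 3.54. The sources used here do not say how the 10000 regions were picked, and the part of that choice in these counts was not tested.

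Regions with many reads were without a Th1 read less often, in every read class below the share expected from the deposited constants. Among regions of 7 or 8 reads in all, 23.8% had none (33.4% expected). Among those of 11 or 12 reads, 13.7% had none (19.1% expected), and among those of 13 or 14 reads, 8.31% (14.4% expected). Of 331 regions with at least 20 reads, 9 had none (14.9 ± 3.76 expected). With table totals the order turned only in the class of 17 to 19 reads, where 6.62% had none and 5.41% were expected. Against naive reads alone it turned in the classes up to 12 reads, for example 13.7% against 11.4% at 11 or 12 reads. Expected numbers from here on use the deposited constants unless another depth is named.

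**Figure D2:**
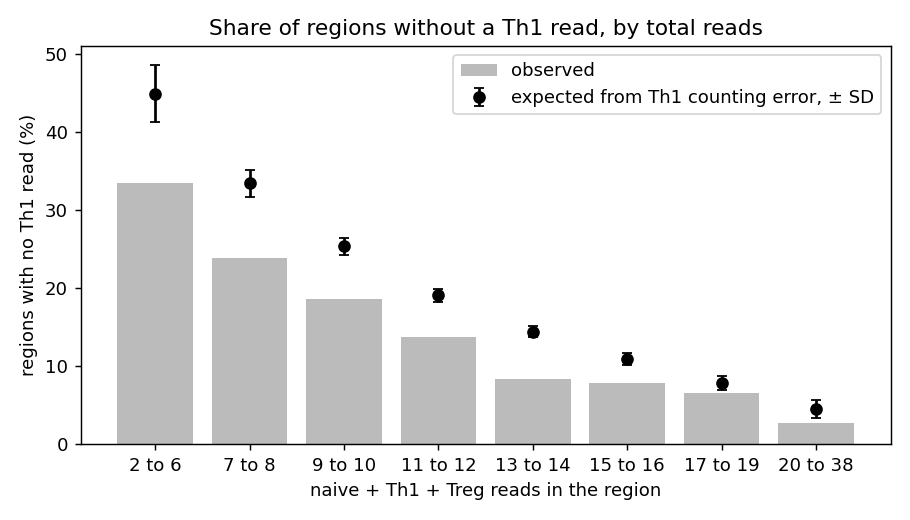
Share of regions with no Th1 read (vertical axis, percent) by the region's naive, Th1 and Treg reads together (horizontal axis): grey bars are observed, black points the share expected from counting error at the deposited constants, with its SD. Each bar lies below its point, from 33.5% against 44.9% at 2 to 6 reads to 2.72% against 4.49% at 20 to 38.

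For any single member the depth was too low to show that Th1 cells lack the methylation. A count of 0 allows up to 3 Th1 reads (a one-sided 95% limit, unlike the two-sided intervals), a value of 5.04. In 210 members the naive value was at or above that limit and in 18 the Treg value was, but the lower bound of the interval passed it in 0 members for naive and in 0 for Treg. The chance of no Th1 read, given a member's reads and the depths, ranged from 3.16% to 74.98% with a median of 20.5%. It was under 5% in 4 members, where 8.62 would be expected among the 220 regions of that depth.

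The members with the most naive and Treg reads are those for which the Th1 zero is least easily met. Among them an intron of Npas3, a transcription factor gene of the nervous system, held 7 naive and 15 Treg reads (chromosome 12, 54421980 to 54422356). Its values were 6.97 in naive (interval 2.80 to 14.4), 0 in Th1 and 5.29 in Treg (2.96 to 8.72), with overlapping intervals.

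Introns of Lgr5, a receptor for R-spondins and a stem cell marker, and of Slc39a11, a zinc transporter gene, each held 5 naive and 17 Treg reads. They lie on chromosome 10 (115019016 to 115019251) and on chromosome 11 (113133379 to 113133736). Introns of Antxr1, an anthrax toxin receptor gene, and Myo16, an unconventional myosin gene, each held 6 and 14, as did exon 4 of Apol11b, of the apolipoprotein L family. Exon 3 of Net1, an exchange factor for the GTPase RhoA, held 4 and 16 (chromosome 13, 3887437 to 3887834). An intron of 4933440M02Rik held 10 naive and 9 Treg reads, with values of 9.96 (4.78 to 18.3) and 3.17 (1.45 to 6.02). Its chance of no Th1 read was 6.48%.

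Just outside the rule lie the 2892 regions with 1 Th1 read, among which Wnt11, a Wnt ligand gene, had the most other reads. Its exon 6 (chromosome 7, 106001517 to 106001924) had 9 reads in naive, 1 in Th1 and 18 in Treg, more in naive and Treg together than any member. Next came the promoter of Heatr7b1 with 11, 1 and 15, and introns of the kinase gene Ulk4 with 7, 1 and 17 and of Clmn with 5, 1 and 17, beside the promoter of Gm9144 with 2, 1 and 21. Clmn had the same naive and Treg reads as the members in Lgr5 and Slc39a11, from which a single Th1 read separates it.

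Naive values did not enter the rule for members, and they were higher in the members. The authors' own choice of the table's regions may depend on the naive and Treg values, however. Its part in this difference was not tested. The mean naive value was 4.06 (interval 3.95 to 4.18) in the members and 3.32 (3.29 to 3.36) in the 8771 regions with a Th1 read. The mean Treg value was 2.54 (2.49 to 2.59) in the members and 2.64 (2.62 to 2.66) in the others. Reads per member ran from 0 to 10 in naive, with a median of 4 against 3 in the others, and from 0 to 19 in Treg, with a median of 7 in both. Regions share their 2 libraries, so these are descriptions of libraries and not tests between cell types.

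**Figure D3:**
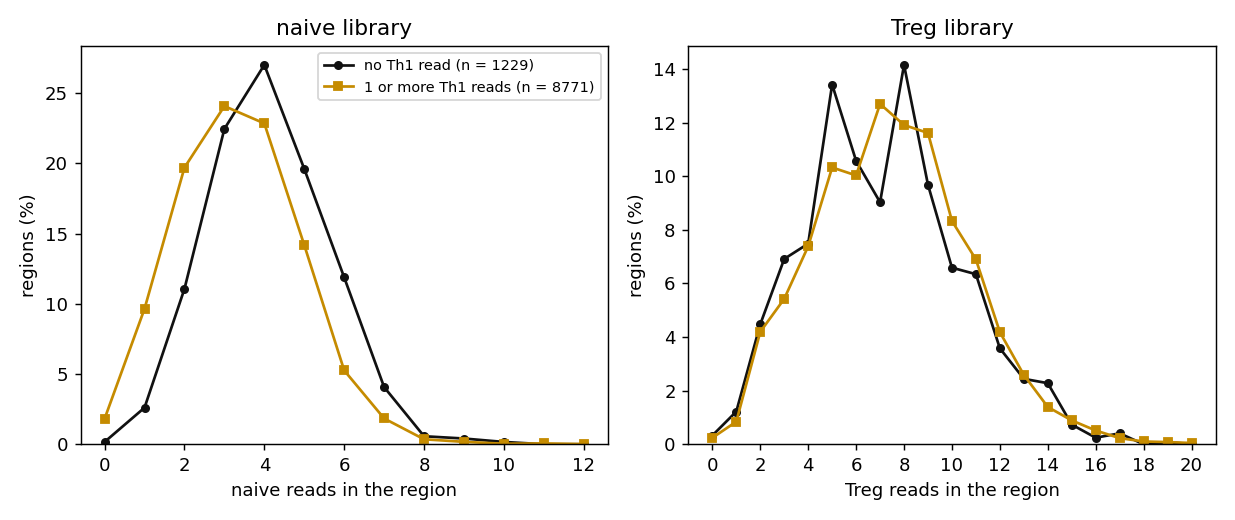
Share of regions (vertical axes, percent) by naive reads (left) and Treg reads (right) per region, for the 1229 regions with no Th1 read (black circles) and the 8771 with at least 1 (orange squares). In naive the black line is moved to the right, with its peak at 4 reads against 3; in Treg both medians are 7, and the black line has peaks at 5 and 8 reads. The axes end at 12 naive and 20 Treg reads, beyond which lie a few regions with Th1 reads.

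From 0 to 5 Th1 reads the mean naive value went down step by step. It was 4.06 at 0 reads, 3.73 at 1, 3.34 at 2, 3.04 at 3, 2.81 at 4 and 2.61 (2.42 to 2.80) at 5. Treg values showed no such order and stayed between 2.51 and 2.69 over the same classes. Above 5 Th1 reads few regions remain and the order ends: the mean naive value was 2.61 in 81 regions with 6, 3.39 (2.35 to 4.73) in 10 with 7, 4.15 (2.69 to 6.13) in 6 with 8, and 10.96 in the 1 region with 9. Whether the authors' choice of regions plays a part in this order was not tested.

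**Figure D4:**
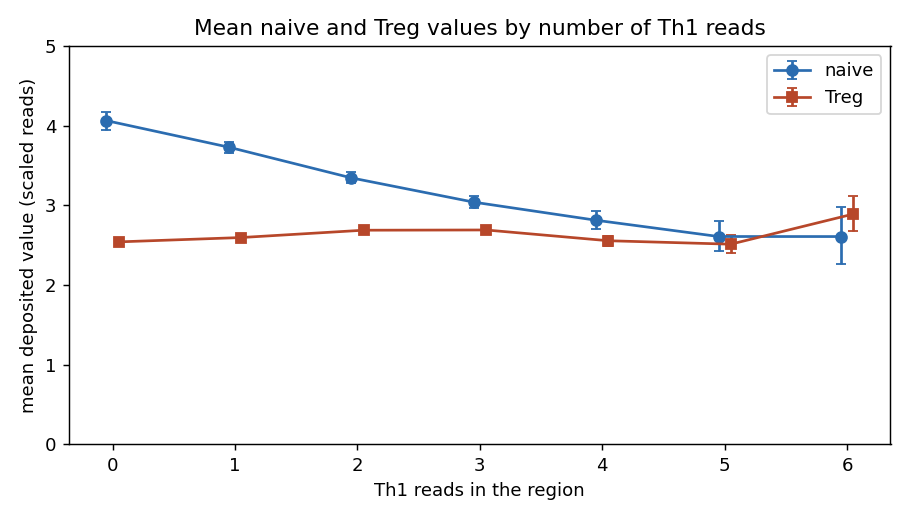
Mean deposited value (vertical axis, scaled reads) in naive (blue circles) and Treg (red squares) by Th1 reads per region (horizontal axis), with 95% Poisson intervals. The naive mean goes from 4.06 at 0 Th1 reads to 2.61 at 5, while Treg lies at 2.54 and 2.51.

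The naive share of the naive and Treg reads was 36.1% in the members and 30.8% in the others, against 26.1% for the naive part of the 2 libraries' depth. The difference was present among regions with like numbers of naive plus Treg reads. Such matching does not match deposited values, in which 1 read is worth 0.996 in naive and 0.352 in Treg. Whether the authors' choice of regions plays a part was not tested. Among regions with 8 to 10 naive plus Treg reads the naive share was 44.3% in members and 35.1% in others, with 11 to 13 reads 35.0% and 28.9%, and with 14 to 24 reads 28.3% and 25.2%. In the lowest class, 2 to 7 reads, it was 51.9% and 43.7%.

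Treg was counted as lower or higher than naive where the deposited values, each with 0.5 added, differed by at least 1 on the log2 scale. Treg was lower in 364 members, 29.6% (exact binomial interval 27.1 to 32.3), against a background of 22.2% over all 10000 regions. Treg was higher in 30 members, 2.44% (1.65 to 3.47), against a background of 8.33%. The median log2 ratio of Treg to naive was -0.60 in the members and -0.29 over all regions. With both libraries brought to equal table totals, 235 members were lower (background 12.3%) and 75 higher (background 15.2%), and the medians became -0.27 and 0.04. Under both scalings the members leaned further to naive than the table did. With 5 added in place of 0.5, 21 members were lower (background 0.73%) and 0 higher (background 0.06%). At a log2 threshold of 1.5, 231 were lower (background 12.1%) and 19 higher (background 4.05%). Of 226 members with a naive or Treg value of at least 5, 158 were lower (background 60.2% of 1053 such regions) and 5 higher (background 7.69%).

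Reads were also compared between the libraries, not the cell types, by an exact binomial test, which called 0 members lower and 0 higher after Benjamini-Hochberg adjustment over all 10000 regions. Its background was 0.01% lower and 0.0% higher, and the smallest adjusted p among members was 0.145. With this test at equal table totals the smallest was 0.614. At an unadjusted p under 0.05 it counted 170 members lower (background 8.08%) and 1 higher (background 0.32%), and at equal table totals 90 (background 3.61%) and 8 (background 1.15%).

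Regions of 5 genes had the lowest Treg to naive ratios among members. An intron of App, the gene of the amyloid precursor protein, held 9 naive reads and 1 Treg read (chromosome 16, 85081232 to 85081506), a naive value 25.4 times the Treg value with a counting interval of 3.52 to 1115. An intron of Msi2, which encodes an RNA-binding protein of stem cells, held 7 and 1 (19.8 times, 2.54 to 892). Introns of Serpinb12, a serpin gene, Slc25a21, a mitochondrial carrier gene, and Klhl1, a neuronal kelch-family gene, held 7, 6 and 4 naive reads and no Treg read. Against the 3 reads that a count of 0 allows in a library, the observed naive values were at least 6.59-fold, 5.65-fold and 3.77-fold higher, without the counting error of the naive reads. With that error the intervals of Klhl1 overlap: its naive interval starts at 1.09 and its Treg interval ends at 1.30. All 5 were picked for the lowest ratios among the members, and their intervals are not adjusted for that choice. The adjusted exact test called none of them. In the regions of Serpinb12, Slc25a21 and Klhl1 the naive library was the only one with a read.

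At the other end, an intron of Plekha7, an adherens junction gene, held 1 naive and 19 Treg reads (chromosome 7, 123270342 to 123270664). Its Treg value of 6.70 was 6.72 times the naive value of 0.996, with a counting interval of 1.07 to 279. Inpp5a, an inositol phosphatase gene, had 1 and 17 reads in an intron and Map2k6, a kinase that activates p38 MAP kinases, had 1 and 16. The intervals of both ratios include 1, at 0.943 to 251 and 0.879 to 237. The Jph4 promoter (a junctophilin gene, chromosome 14, 55736425 to 55736659) with 0 naive and 7 Treg reads and an intron of the apoptosis inhibitor gene Aven with 0 and 6 complete this group. Jph4 and Aven were the only members with no naive read. Their naive intervals, both 0 to 3.67, overlap their Treg intervals of 0.992 to 5.08 and 0.776 to 4.60. These 5 regions were picked for the highest ratios among the members, and their intervals are not adjusted for that choice. The adjusted exact test called none of them. With 5 added in place of 0.5, their log2 ratios lay between 0.51 (Aven) and 0.96 (Plekha7), below the threshold of 1.

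**Figure D5:**
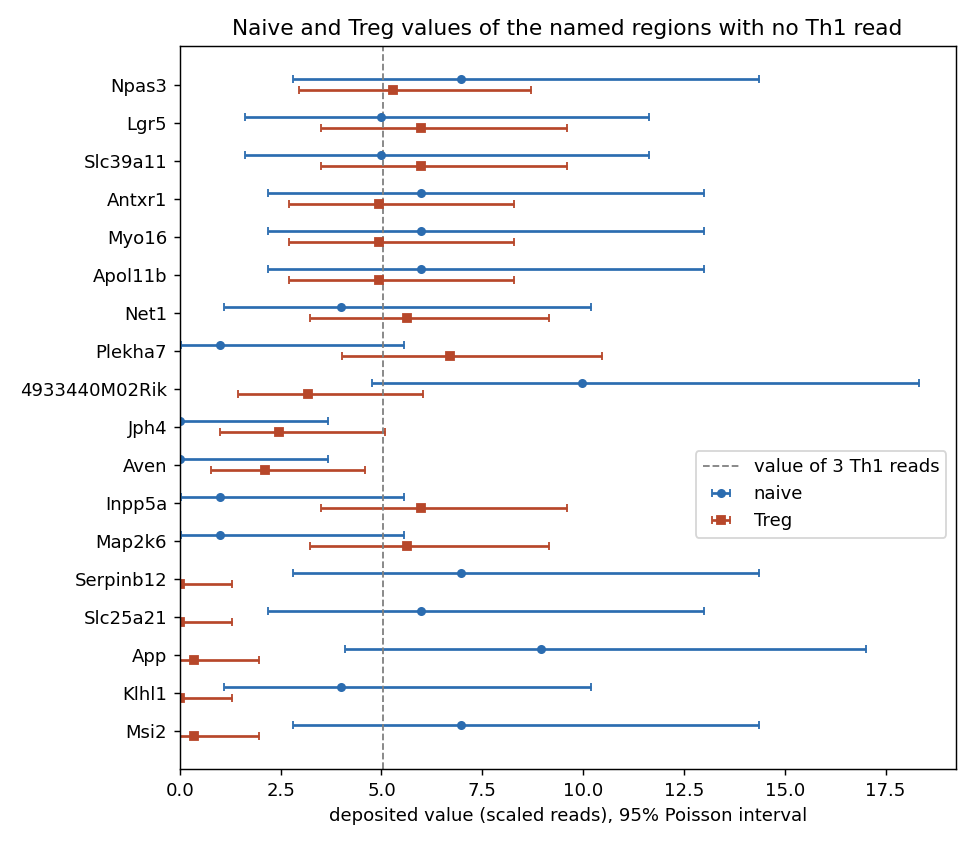
Deposited values (horizontal axis, scaled reads) in naive (blue circles) and Treg (red squares) with 95% Poisson intervals, for the members with the most reads and those with the highest and lowest Treg to naive ratio (rows). The dashed line marks 5.04, the value of the 3 Th1 reads that a count of 0 allows, and no interval lies wholly above it.

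By position, 992 members lay in introns (80.7%, exact binomial interval 78.4 to 82.9), 177 in exons (14.4%, 12.5 to 16.5) and 60 in promoters (4.88%, 3.75 to 6.24). The other regions were 78.4% intronic, 16.9% exonic and 4.75% in promoters. Read the other way, 12.6% of intronic, 10.7% of exonic and 12.6% of promoter regions had no Th1 read, where counting error gives 17.9%, 16.1% and 16.9%. Exons 2 to 5 stood lowest, with 58 members in 658 regions (8.81%, 16.3% expected). Exon 1 had 15 in 104 (14.4%, 17.2% expected), and exon 6 or later had 11.6% (15.9% expected). Over the whole table the share was 12.3%, with 17.6% expected. The lean to naive held in each class, with mean naive values of 4.10, 3.82 and 4.12 in intronic, exonic and promoter members, against 3.34, 3.22 and 3.46 in the other regions.

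Members were slightly shorter, with a median length of 239 bp (120 to 600) against 250 bp (93 to 790). Of regions longer than 300 bp, 8.82% were members (14.8% expected), and of those up to 200 bp 13.9% (19.9% expected). Longer regions also held more reads, a median of 14 against 12.

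Among promoter members, that of C130026I21Rik (chromosome 1, 85267151 to 85267507) had the most reads, 10 naive and 8 Treg, a naive value 3.53 times the Treg value (1.26 to 10.3). Rims1, a scaffold gene of the synaptic active zone, had 5 and 13 (chromosome 1, 22911309 to 22911519) and 1600012H06Rik 4 and 14. Pde4b, a cyclic AMP phosphodiesterase gene active in leukocytes, had 4 and 13 in a region whose middle lies at -1018 bp from the gene start (chromosome 4, 101759012 to 101759248). Of the 60 promoter members 33 matched a RefSeq window by name. The 26 genes with a single window held a median of 5.5 CpGs in it, against 8 in 195 genes of the other promoter regions and 7 in all windows. In 6 of the 26 the region overlaps the window.

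The exonic members with the most reads, after Apol11b and Net1, were in exon 44 of Abca13, a lipid transporter gene, with 6 naive and 13 Treg reads, and exon 8 of Tecpr2, an autophagy gene, with 4 and 15. Exon 3 of Ccdc116 held 6 and 12. In none of the 3 did the interval of the naive to Treg ratio leave out 1.

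Over the chromosomes, the share of regions that were members ran from 10.02% on chromosome 4 to 15.96% on chromosome 3 and 15.99% on chromosome 13. On chromosome 13 the 63 members came nearest to the expected number, 68.6 ± 7.36. Chromosome 4 had the lowest ratio of observed to expected, 0.567, with 64 against 113 ± 9.42. Over the whole table the share was 12.3% and this ratio was already 0.699. Both chromosomes were named as extremes, and no chromosome was tested. The X chromosome had 30 members in 200 regions, with 37.9 ± 5.42 expected.

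Members were spread over many genes: 917 genes had 1 member, 109 had 2 and 25 had 3 or more. AC114005.5, annotated as a fragment of a GalNAc transferase, had the most, 9 of its 27 intronic regions, with 4.18 expected. Their naive reads ran from 2 to 7 and their Treg reads from 4 to 12, and the 27 regions span 3829 kb of chromosome 8. Fgfr2, a fibroblast growth factor receptor gene, had 6 of 39 (8.35 expected) over 2886 kb. Whether regions over such spans lie within the gene was not checked. These genes and those of the next paragraph were picked for the most members, so a count above the expected number can follow from the choice. How often counting error gives a gene so many members was not computed.

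Sdk1, a synaptic adhesion gene, had 6 members of 25 regions (4.59 expected), with 3 to 5 naive and 5 to 13 Treg reads each. Ntm, a neuronal adhesion gene of the same broad kind, had 5 of 13 (2.72 expected). The Ntm members were unlike each other: 1 held 2 naive and 11 Treg reads (chromosome 9, 28867426 to 28867701) and another 7 and 3 (29550696 to 29550915). Rbms3, an RNA-binding protein gene, had 4 of 23 (3.84 expected), with 4 to 7 naive and 3 to 8 Treg reads. Over the 57 genes with 10 or more regions, 14.4% of regions were members (17.9% expected), and over genes with 1 region 11.5% (17.4% expected).

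In 20 genes with at least 2 table regions, every region was a member. Ddah1, which encodes an enzyme that breaks down inhibitors of nitric oxide synthesis, had 3, all intronic, with 3 naive and 15 Treg reads, 3 and 7, and 4 and 4 (chromosome 3, 145496523 to 145518719). Cpt1a, the carnitine palmitoyltransferase that admits fatty acids to mitochondria, had introns with 2 and 11 and with 4 and 8 reads (chromosome 19, 3357375 to 3383450). Rreb1, a zinc finger transcription factor gene of Ras signalling, had an intron with 3 and 7 and an exon with 4 and 12. Others were Gzmk, the axon receptor gene Ephb2, the nicotinic receptor gene Chrna7, and Emcn, of endothelial cells. In the 19 of them with 2 regions, counting error gave between 0.231 and 0.843 expected members per gene. Since the genes were picked for having only members, counts above these numbers follow from the choice. The table held 1605 genes with 2 to 4 regions, and 12.8% of those regions were members. How many genes with only members counting error would give was not computed.

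Neighbouring regions did not share the Th1 zero more than others. Of 242 members with another table region within 10 kb, 29 (11.98%) had a member as neighbour, and of 1806 other regions 223 (12.35%) had one. Among 154 stretches of regions of a gene less than 1000 bp apart, 3 consisted of members only: in introns of Sdk1 (chromosome 5, 141984971 to 141985717), of Gpr126, an adhesion receptor gene (chromosome 10, 14258210 to 14258824), and of Ddah1 (chromosome 3, 145518201 to 145518719). They held 7 naive and 16 Treg reads, 13 and 17, and 7 and 11. In 25 further stretches a member lay beside a region with a Th1 read.

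The 15 lists of T cell, other blood cell, neuronal, developmental and imprinted genes held 344 genes, of which 134 had a region and 40 a member. Of the 434 regions of these genes 56 were members, 12.9%, beside 12.3% in the table, with 77.3 expected from counting error. With table totals 61.0 were expected and against naive reads alone 47.1, so here too the direction depends on the library compared.

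Of the Th1 ligands and receptors, 3 of 18 genes had a region (Il12a, Il18r1 and Il27ra) and 0 had a member among 4 regions. Of the Th1 transcription and signalling genes, Stat4 and Runx3 had regions that all held a Th1 read, and Prdm1 had 1 member of 2 regions. Prdm1 encodes Blimp-1, a transcriptional repressor that acts in effector T cells and plasma cells. Its intronic member (chromosome 10, 44203998 to 44204336) held 2 naive and 14 Treg reads, values of 1.99 and 4.93, and was among the 30 members counted as higher in Treg (log2 ratio 1.12). The counting interval of its Treg to naive ratio, 0.569 to 22.5, includes 1. With 5 added in place of 0.5 its log2 ratio was 0.507, below the threshold.

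Gzmk, the gene of granzyme K of cytotoxic and memory T cells, had 2 regions in the table and both were members. They held 5 naive and 9 Treg reads (chromosome 13, 113973431 to 113973618) and 3 and 8 (113978525 to 113978694). Sox13, a transcription factor of gamma-delta T cells, had 1 region, a member with 5 and 7. The cytotoxic, NK, CD8 and gamma-delta list thus had 3 members in 8 regions (1.24 expected), while Gzmb and Zbtb16 had a Th1 read in all of theirs.

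Among Th17 genes, 5 of 26 regions were members (4.33 expected), 4 of them in Rora, which encodes a nuclear receptor of Th17 cells, and 1 in Rbpj, the transcription factor of Notch signalling. The Rora members held 6 naive and 8 Treg reads (chromosome 9, 68980768 to 68980997), 3 and 11 (68894594 to 68894842), 3 and 8 (69075712 to 69076002), and 4 and 5 (68528972 to 68529114), and Rbpj held 3 and 9. Il17a, Ccr6, Il1r1, Tgfbr2, Dpp4 and Ltb4r1 had regions but no member. Of the Treg list, Nrp1, a surface receptor of Treg cells from the thymus, had its 1 region among the members, with 5 naive and 5 Treg reads (values 4.98 and 1.76), while Foxo1, Itgae, Socs2 and Tnfrsf9 had none.

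Cd44, the hyaluronan receptor that marks activated and memory T cells, was the 1 gene of the receptor signalling and activation list with a member, among 12 regions of 11 genes (1.74 expected). Its intronic region (chromosome 2, 102658056 to 102658280) held 5 naive and 2 Treg reads, values of 4.98 and 0.705. Itga1, a collagen-binding integrin chain, had 2 members of 3 regions, with 4 and 11 and with 3 and 7 reads. Cd28, Cd5, Fyn, Lcp2, Plcg1, Nfatc1, Nfatc2 and Nfkb1 had a Th1 read in each of their regions.

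The lists with 0 members were the Th1 ligands and receptors, the Th2 and Tfh genes (6 regions, 0.977 expected), the naive state genes (12 regions of 8 genes, 1.57 expected), the genes of DNA methylation and chromatin (16 regions of 12 genes, 2.28 expected) and the imprinted genes (13 regions of 5 genes, 2.17 expected). Foxp1, Bach2 and Igf1r of the naive list and Dnmt1, Dnmt3a, Tet1 and Tet3 of the methylation list were read in Th1 cells.

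Of genes of other blood cells, Cd22, a B cell receptor inhibitor, had 5 naive and 12 Treg reads in its 1 region (chromosome 7, 31656449 to 31656793). Blk, a B cell kinase gene, had 1 member of 3 regions (3 and 8) and Ebf1, the B cell transcription factor, 1 of 8 (6 and 4). The B cell list had 3 members in 18 regions (3.11 expected). The myeloid list had 1 member in 6 (0.893 expected), in Csf3r, the receptor of the granulocyte growth factor, with 3 and 8 reads.

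Neuronal adhesion and synapse genes held the most regions of any list, 235, and gave the most members, 34 (14.5%, beside 12.3% of all table regions). From counting error 45.1 were expected, and over the whole table the members were already 0.699 times the expected number. A member lay in 23 of the 37 genes with a region. Over all table genes 19.5% had a member, but 3434 of these genes held only 1 region. Cadm2, a synaptic adhesion gene, led with 5 naive and 14 Treg reads (chromosome 16, 67105765 to 67105991). Unc5c, a netrin receptor gene, followed with 3 and 13, Csmd1 with 4 and 10 and Kcnip4, a potassium channel partner, with 6 and 7. The median member of this list held 4.5 naive and 5.5 Treg reads, against 4 and 7 over all members. Developmental transcription factors had 5 members in 59 regions (10.3 expected), 1 each in Meis2 (3 and 9 reads), Prdm16 (1 and 9), Ebf3 (6 and 2), Ebf2 (4 and 3) and Sox5 (2 and 4).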

How the data were processed

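Per the labels' protocols, methylated DNA of 4 populations, 1 library each, was captured with a MethylCap kit and sequenced from fragments cut from a gel. Bowtie 0.12.7, FastQC and the build mm9 appear in the submitters' processing notes. The sources used here do not say how regions were called and picked. The authors deposited 1 signal per region and library, a scaled number of reads. Every deposited naive, Th1 and Treg signal was a whole multiple of the smallest nonzero value in its column (100% within 1e-06), and reads were recovered by division. Depths were the inverse of these constants.

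The expected number without a Th1 read is the sum over regions of the binomial chance that none of the region's reads falls in Th1. The size rule used a pseudocount of 0.5 and a log2 threshold of 1. The exact binomial test was adjusted over the table. The expected number and the exact test were tested on simulated data, in which changed regions were deeper than real ones. Regions were named by most naive plus Treg reads (10 in all, 5 promoter, 5 exon, 5 with 1 Th1 read), extreme Treg to naive ratios (5 at each end), most members (5 genes), stretches, and at most 4 regions per list. Krt40, Tmco5, the genes with all regions at 0, the last-named Rora region, Sox5 and Cacna1c fall outside this and were named after their values were seen. Of the regions and genes so named, 2 are not reported here. Members and lists were chosen with earlier results of these data known. Gene labels were matched to GRCm38.p6 names (1021 of 1049 member labels). Alternatives were other depths, pseudocounts, thresholds, scalings, value filters, merging and 1 region per gene. Python 3.11.15, SciPy 1.17.1 and pandas 2.3.3 were used.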

Additional observations from a re-analysis of the deposited data

How the results depend on the processing

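The member count was 1201 with regions of a gene under 1000 bp apart merged. The expected number was 1115 against naive reads alone, below the observed 1229, and lay between 1387 and 2046 under the other planned depths and the read minimum; at table totals, chosen after seeing the data, it was 1182 against naive and 1512 against Treg reads. Members lower in Treg, each with the share over all regions, numbered 21 (0.73%) with a pseudocount of 5, 231 (12.1%) at a log2 threshold of 1.5, 235 (12.3%) at equal table totals, and 0 (0.01%) by the exact test. Members higher in Treg numbered 0 (0.06%), 19 (4.05%), 75 (15.2%) and 0 (0.0%) in the same order. Among the 1053 regions with a value of at least 5, of which 226 were members, 158 members were lower (69.9%, against 60.2% of the 1053) and 5 higher (2.21%, against 7.69%). With 1 region per gene the intronic share was 78.3% and the promoter share 5.61%. At equal table totals the median naive value was 3.63 and the median Treg value 2.92, against 3.98 and 2.47. The cause of these shifts was not tested. No paired analysis was possible because each population has 1 library. With 1 Th1 read worth 1.68 and 3 reads allowed by a count of 0, single regions cannot be called unmethylated in Th1 at this depth.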

Other observations

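The Treg reads of the members did not follow a smooth curve. Members with 5 Treg reads numbered 165, with 6 130, with 7 111, with 8 174 and with 9 119, a dip at 7 between peaks at 5 and 8. Among the regions with a Th1 read, the most frequent number was 7, with 1114 regions, beside 880 at 6 and 1045 at 8. The dip was deepest among members with 6 naive reads, of which 32 held 5 Treg reads, 16 held 6, 4 held 7 and 17 held 8. It was seen after the values were known and was not tested.

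Gene families, picked by name after the values were seen, are set here beside the 12.3% of all table regions that were members. Over the whole table the members were already 0.699 times the number expected at the deposited constants. The SDs beside the expected numbers do not allow for that. Ion channel genes of the Cacna, Kcn and Scn families had 29 members in 157 regions, 18.5%, in 21 genes, near the 30.6 ± 4.84 expected from counting error at the deposited constants. The calcium channel gene Cacna1c of heart and brain had 4 of them, with 2 to 4 naive and 6 or 7 Treg reads each. Solute carrier genes had 19 members in 214 regions, 8.88%, with 37.6 ± 5.42 expected, and Zfp zinc finger genes had 8 in 105, 7.62%, with 18.5 ± 3.82 expected. Receptor tyrosine phosphatase genes (Ptpr) had 12 in 73 (13.4 expected) cadherin and protocadherin genes 11 in 84 (14.9 expected), and Arhgap and Arhgef genes 9 in 67 (12.4 expected). Olfactory and vomeronasal receptor genes had 3 members in 37 regions, 8.11%, with 5.97 ± 2.21 expected, and all 3 were in promoters. The share of promoters among the 37 regions was not computed. No family was tested against the rest of the table.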
